A study of Homo sapiens with 6 samples.

Results

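The IL-1 family receptors and coreceptors were followed in HMC3, a line of human microglia made immortal with SV40 large T antigen, with and without interleukin-33 (IL-33). They are 8 genes chosen by symbol: IL1R1, IL1R2, IL1RL1, IL1RL2, IL1RAP, IL18R1, IL18RAP and SIGIRR. All 8 were found among the 27469 genes of the count table, and 3 of them (SIGIRR, IL1RAP and IL1R1) passed the low-count filter that 12125 genes passed. The 2 groups were HMC3 labelled Control (3 libraries) and HMC3 given IL-33 for 24 h (3 libraries). Both came from the same line, and the labels give no dose, no vehicle and no passage, nor do they say that the libraries came from separate cultures. The p-values therefore speak only of differences among these 6 libraries, whose spread may be technical.

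Receptors of this family pair a ligand-binding chain with an accessory chain. Their cytoplasmic TIR domains then recruit the adaptor MyD88 and start NF-kB and MAP kinase signalling. IL-33 binds ST2, the product of IL1RL1, with IL1RAP as its accessory chain, and IL1RAP also serves the IL-1 receptor IL1R1 and the IL-36 receptor IL1RL2. IL18R1 and IL18RAP together bind IL-18. IL1R2 is a decoy that binds IL-1 without a signalling TIR domain, and SIGIRR is a receptor with a single immunoglobulin domain that dampens signalling by other members. In the brain, microglia are among the cells known to respond to IL-33 through ST2.

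The libraries held 5739947 to 10217529 counts, and 3 counts, taken as the limit below which a gene cannot be placed, came to 0.293 to 0.542 CPM (counts scaled to a library of 1000000). Control 3, which had the fewest counts, stood apart, at 54.96 on the first principal component against -18.0 to 0.86 for the other 5. Markers of microglia and macrophages were scarce. Of 12 listed, 6 had 0 counts in every library (ITGAM, CX3CR1, P2RY12, TMEM119, SPI1 and TYROBP). Only 2 were tested, CD68 and CD14 (means of 2.745 and 1.427 CPM over the 6 libraries), with 0 called. The summed level of the 12 was 3.57 to 8.31 CPM (Control) and 3.88 to 6.83 CPM (IL-33). Of 8 fibroblast and mesenchymal markers, 6 were tested and 0 called, while COL3A1 and ACTA2 had 0 counts in every library. The summed level of the 8 was 5560 to 6589 CPM (Control) and 5805 to 6378 CPM (IL-33). Most of it came from FN1 and VIM (means of 3666 and 1551 CPM over the 6 libraries). COL1A1 and THY1 came next, with means of 720 and 209 CPM. Of 10 markers of type 2 lymphocytes and mast cells, cells in which ST2 is abundant, 6 had 0 counts, among them CD3E, PTGDR2, FCER1A and TPSAB1. The sum of these 10 was 93.0 to 108 CPM in Control and 67.5 to 99.7 CPM with IL-33, carried by KIT and IL7R (means of 48.4 and 37.9 CPM over the 6 libraries).

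The family was read mainly through its inhibitory member. SIGIRR had 1835 counts over the 6 libraries, IL1RAP 299 and IL1R1 123, followed by IL1R2 with 17, IL1RL1 with 11 and IL18R1 with 4. IL1RL2 and IL18RAP had 0. SIGIRR took 81.2% ± 5.10 of the family's counts in Control and 79.4% ± 7.58 with IL-33 (SD, n = 3 each). IL1RAP took 13.3% ± 3.23 and 12.6% ± 4.41, and IL1R1 4.22% ± 3.02 (2.67% without Control 2) and 6.37% ± 3.67. The kit reads a tag near the 3′ end of each transcript, so these shares are not weighted by transcript length.

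**Figure D1:**
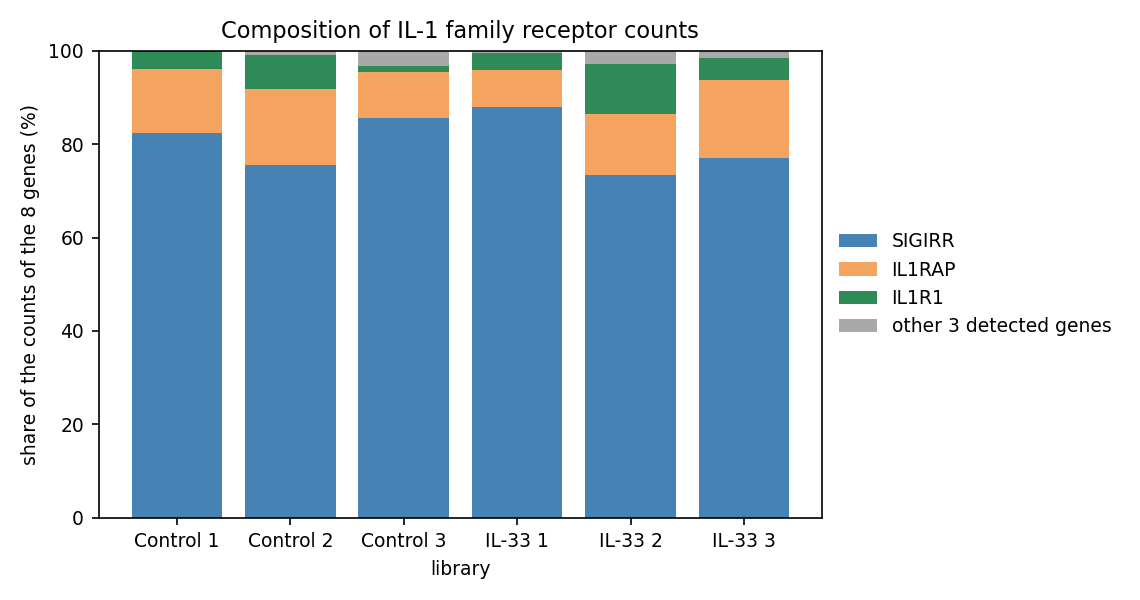
Share of the counts of the 8 receptor genes (y axis, %) held by SIGIRR, IL1RAP, IL1R1 and the other 3 detected genes (IL1R2, IL1RL1 and IL18R1) in each of the 6 libraries (x axis). SIGIRR held between 73.3% and 87.9% in every library.

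In order of level, SIGIRR came first in all 6 libraries, and its lowest value (27.1 CPM) lay above the highest value of IL1RAP (8.003 CPM). IL1RAP was next and exceeded IL1R1 within each of the 6 libraries, by 1.25 to 7.5 times. Across libraries these 2 genes overlapped (3.19 to 8.003 CPM against 0.723 to 3.90 CPM). IL1R1 and IL1R2 (0 to 0.706 CPM) were hardly apart in Control 3, with 4 and 3 counts. IL1R2, IL1RL1 and IL18R1 could not be ordered, since each was at or near the limit in most libraries. Among the 12125 genes tested, SIGIRR had a mean level at or above that of 61.5%, IL1RAP of 21.4% and IL1R1 of 8.73%.

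With each gene taken at its most CG-rich window, the promoters of the 3 tested members held more CG dinucleotides than those of the other 5. The windows below are the 250 bases before annotated starts (RefSeq, GRCh38.p14), printed 5′ to 3′ on the strand of the gene, with each CG dinucleotide in capitals. They were chosen to set the 3 tested members beside IL1RL1, the gene of the ligand-binding chain for IL-33, and IL18R1. They lie at chr11:417398-417647 on the minus strand for SIGIRR, and on the plus strand at chr3:190513835-190514084 for IL1RAP, chr2:102142496-102142745 for IL1R1 (the most CG-rich of its 4 windows) and chr2:102355546-102355795 for IL18R1 (the more CG-rich of its 2). The 2 windows of IL1RL1 lie on the plus strand at chr2:102311313-102311562 and chr2:102337007-102337256.
SIGIRR: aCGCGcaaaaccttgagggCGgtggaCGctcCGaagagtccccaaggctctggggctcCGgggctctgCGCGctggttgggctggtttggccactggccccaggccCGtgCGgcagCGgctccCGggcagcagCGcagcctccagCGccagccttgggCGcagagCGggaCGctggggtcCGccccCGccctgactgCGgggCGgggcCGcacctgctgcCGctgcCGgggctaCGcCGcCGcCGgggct
IL1RAP: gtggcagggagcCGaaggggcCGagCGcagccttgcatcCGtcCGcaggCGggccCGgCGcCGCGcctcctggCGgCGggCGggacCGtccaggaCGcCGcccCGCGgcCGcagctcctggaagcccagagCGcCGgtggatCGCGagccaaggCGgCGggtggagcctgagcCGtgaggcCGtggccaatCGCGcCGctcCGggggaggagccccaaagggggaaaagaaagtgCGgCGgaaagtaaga
IL1R1: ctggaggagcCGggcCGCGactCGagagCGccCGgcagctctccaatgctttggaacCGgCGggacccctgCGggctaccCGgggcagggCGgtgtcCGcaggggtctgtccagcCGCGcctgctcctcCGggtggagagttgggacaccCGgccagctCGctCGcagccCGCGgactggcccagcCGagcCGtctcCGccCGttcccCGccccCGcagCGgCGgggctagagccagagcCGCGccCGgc
IL18R1: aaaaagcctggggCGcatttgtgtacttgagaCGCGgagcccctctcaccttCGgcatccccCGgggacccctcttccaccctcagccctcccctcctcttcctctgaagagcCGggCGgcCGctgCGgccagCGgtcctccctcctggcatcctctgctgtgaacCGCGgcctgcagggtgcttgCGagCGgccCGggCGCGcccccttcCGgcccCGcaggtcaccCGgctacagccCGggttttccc
IL1RL1, upstream start: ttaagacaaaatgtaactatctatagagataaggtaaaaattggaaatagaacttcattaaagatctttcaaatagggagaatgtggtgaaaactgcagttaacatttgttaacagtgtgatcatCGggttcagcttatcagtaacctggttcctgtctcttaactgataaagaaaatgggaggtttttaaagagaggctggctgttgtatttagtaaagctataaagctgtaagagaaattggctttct
IL1RL1, downstream start: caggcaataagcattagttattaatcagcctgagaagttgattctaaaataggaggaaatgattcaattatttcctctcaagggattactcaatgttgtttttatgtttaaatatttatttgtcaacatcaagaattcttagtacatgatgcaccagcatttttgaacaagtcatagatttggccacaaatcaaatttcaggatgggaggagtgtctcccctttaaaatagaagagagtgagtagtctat

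SIGIRR had 28 CG dinucleotides in its window, IL1RAP 33 and IL1R1 31, and as many or more were found in 15.9%, 8.15% and 10.9% of the 35116 windows of all genes, whose median was 11. The upstream window of IL1RL1 had 1, where 93.9% of all windows had as many or more, and the downstream window had 0. IL18RAP had 2 at most, IL1R2 9 and IL1RL2 15. IL18R1 was the closest of the 5 to the tested genes, with 21 and 14 in its windows and 4 counts in all. For IL1R1 the order held only at its richest window, since its other 3 windows had 6, 3 and 6. Over 17088 genes with a window and a row in the table, the low-count filter was passed by 7.37% of the 3665 genes with 0 to 4 CG dinucleotides, 24.9% of the 1692 with 5 to 9, 64.4% of the 3846 with 10 to 19 and 77.8% of the 7885 with 20 or more, counting each gene at its most CG-rich window. A CG count describes these letters and does not show which start was used in HMC3.

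IL1RL1, the ST2 gene, lies on chromosome 2 from 102311502 to 102352037 (GRCh38, plus strand). It had 0 counts in Control 1, Control 2, IL-33 1 and IL-33 3, 3 counts in Control 3 and 8 counts in IL-33 2. Its reads thus came from 1 library of each group, and the groups overlapped. In IL-33 2 the 8 counts made 0.780 CPM (exact Poisson 95% interval 0.337 to 1.54), and in Control 3 the 3 counts made 0.542 CPM (0.112 to 1.58). For the counts of 0 in the other 4 libraries, the upper bounds of the same interval were 0.366, 0.443, 0.393 and 0.434 CPM in the order given above. Pooled by group, IL1RL1 measured 0.125 CPM in Control (0.0258 to 0.366) and 0.284 CPM with IL-33 (0.123 to 0.560), a ratio of 2.27 with an exact interval from 0.544 to 13.3. These intervals cover counting error and leave out the spread between libraries. They also leave out any effect of the overlap with IL18R1, whose annotated span shares 40509 bases with IL1RL1 on the same strand. How reads in such overlaps were counted is not stated. In bulk RNA, a low level in all cells and a higher level in a few cells cannot be told apart. IL1RL1 yields membrane-bound ST2 and a soluble form with another 3′ end. GENCODE release 29 lists 4 distinct 3′ ends among the coding transcripts of IL1RL1 in its basic set, and the count per symbol does not separate them.

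IL1RAP, the accessory chain, lies on chromosome 3 from 190514051 to 190659750. Its levels were 6.05, 7.20 and 5.42 CPM in Control and 3.19, 4.88 and 8.003 CPM with IL-33. The lowest and the highest of the 6 values were both in IL-33 libraries, and the groups overlapped. The means were 6.22 ± 0.903 (Control) and 5.36 ± 2.44 CPM (IL-33) (SD, n = 3 each). The log2 fold change was -0.23 ± 0.39 (SE) with a 95% interval from -1.05 to 0.60, and did not pass edgeR's test (adjusted p = 0.999). Among coding transcripts of IL1RAP in the GENCODE basic set, 8 distinct 3′ ends are annotated. The gene encodes membrane and soluble forms that the counts do not tell apart.

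SIGIRR lies on chromosome 11 from 405716 to 417455 on the minus strand, with 2 annotated 3′ ends among its coding transcripts in the GENCODE basic set. It measured 36.6, 33.4 and 47.0 CPM in Control and 35.6, 27.1 and 37.1 CPM with IL-33. Control 3 was the highest and IL-33 2 the lowest, and the other 4 libraries lay between 33.4 and 37.1 CPM whatever their group. The means were 39.0 ± 7.12 (Control) and 33.3 ± 5.39 CPM (IL-33). The log2 fold change of -0.22 ± 0.18 (SE) did not pass edgeR's test either (adjusted p = 0.999). Its 95% interval ran from -0.60 to 0.15, that is, from 0.659 to 1.11 times the Control level. Without Control 3, the library that stood apart, the log2 fold change was -0.08, and without IL-33 2 it was -0.09. The exact Poisson interval of Control 3 (41.4 to 53.1 CPM) did not reach that of Control 1 (32.9 to 40.5 CPM). The spread between these libraries thus exceeded Poisson counting error, which takes reads as independent.

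IL1R1, the signalling receptor for IL-1, lies on chromosome 2 from 102064544 to 102179874. Its levels were 1.78, 3.24 and 0.723 CPM in Control and 1.49, 3.90 and 2.35 CPM with IL-33. IL-33 2 was the highest, the library that also held the 8 counts of IL1RL1, and Control 3 the lowest. The groups overlapped, with means of 1.92 ± 1.26 and 2.58 ± 1.22 CPM (SD, n = 3 each). The log2 fold change was 0.40 ± 0.64 (SE), with a 95% interval from -0.94 to 1.74 and did not pass edgeR's test (adjusted p = 0.999). It came to 0.05 without Control 3, to -0.03 without IL-33 2 and to 0.98 without Control 2. Its size thus rested on single libraries, and its sign turned without IL-33 2. From 4 to 40 counts lay behind each value, and the spread within groups exceeded Poisson counting error, which takes reads as independent. The exact Poisson interval of Control 2 began at 2.14 CPM, above the end of that of Control 3 (1.85 CPM), and the interval of IL-33 2 began at 2.79 CPM, above the end of that of IL-33 1 (2.499 CPM).

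The other 4 members stayed at or near the limit. IL1R2, the decoy receptor, had 0, 3 and 3 counts in Control and 2, 3 and 6 counts with IL-33. Its pooled level was 0.250 (Control) and 0.391 CPM (IL-33), a ratio of 1.56 with an exact interval from 0.529 to 5.14 for counting error. IL18R1, the binding chain of the IL-18 receptor, had 4 counts in Control 3 and 0 in the other 5 libraries. Control 3 thus held all reads of IL18R1 and 3 of the 11 reads of IL1RL1. The annotated spans of these neighbouring genes, introns included, overlap by 40509 bases on the same strand. IL18R1 ends at 102398775, beyond the end of IL1RL1 at 102352037. Whether their exons overlap was not tested. IL1RL2 and IL18RAP had no reads anywhere. Over each group, the exact Poisson 95% interval of 0 counts reached 0.154 CPM (Control) and 0.131 CPM (IL-33), and 3 counts came to 0.125 and 0.107 CPM.

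**Figure D2:**
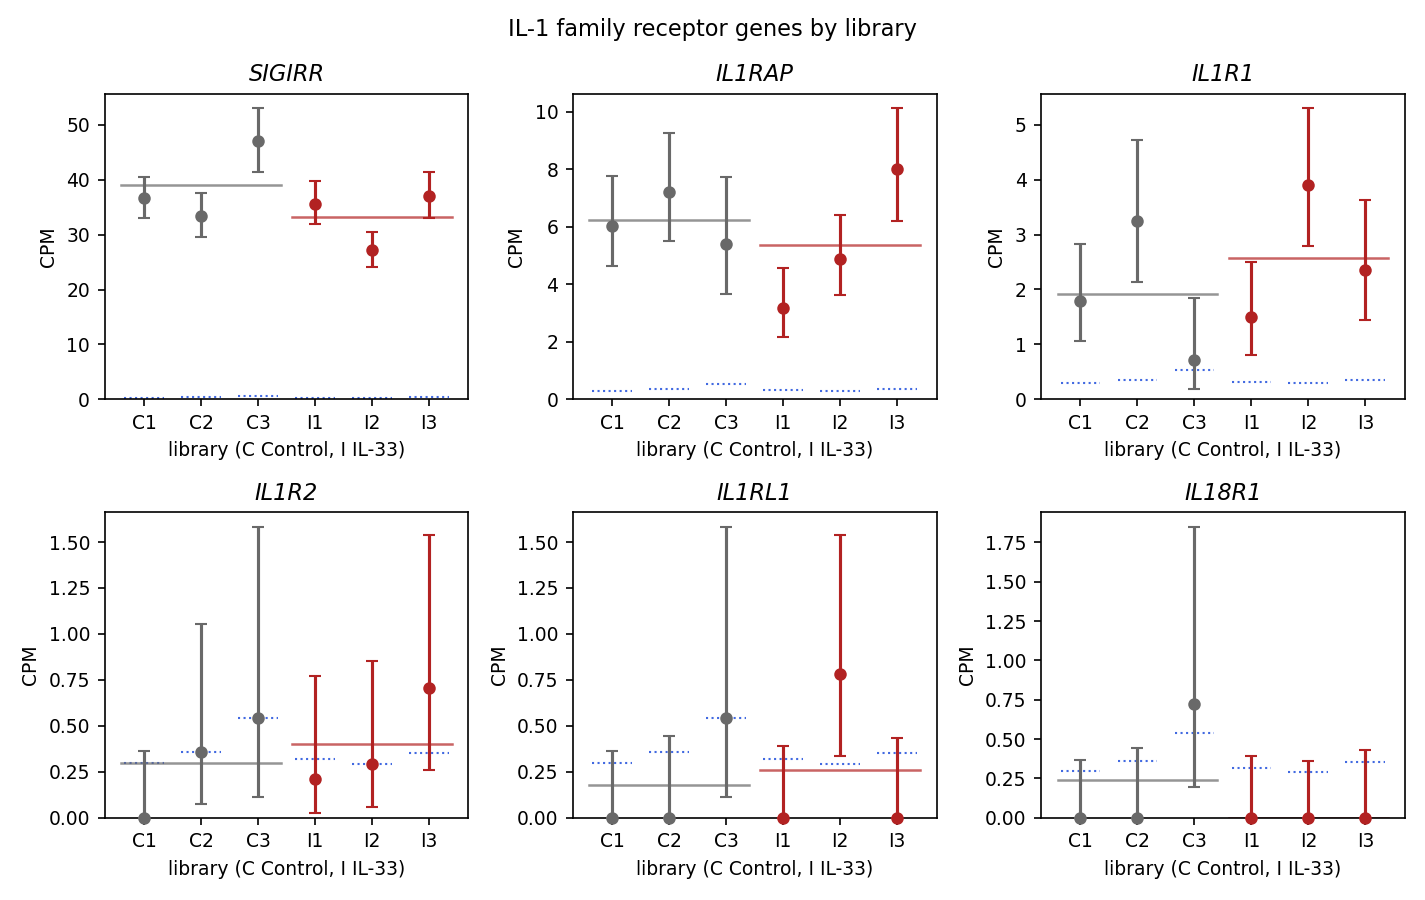
Level in CPM (y axis, from 0, a scale for each gene) of the 6 detected receptor genes in Control libraries (grey, C1 to C3) and IL-33 libraries (red, I1 to I3). Points carry exact Poisson 95% intervals, lines are group means and dotted marks the level of 3 counts. Groups overlapped in all 6 genes, and IL1RL1 was read in C3 and I2 alone.

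Of the 3 members tested, 0 changed with IL-33, against 0.00% of all 12125 genes (0 called) at an adjusted p of 0.05 in edgeR's quasi-likelihood test. At an unadjusted p under 0.05 there were 0 of the 3 members and 295 genes in all (2.43%). DESeq2 called 1 gene, the antisense RNA KIRREL3-AS2, with 290 at an unadjusted p under 0.05, and limma-voom 0, with 329. Neither called a member. The groups did not overlap in 0 of the 3 members and in 8.06% of the genes tested. A two-sided exact permutation test of the mean CPM gave p = 0.5 for SIGIRR and p = 0.6 for both IL1RAP and IL1R1 (n = 3 each, where the smallest possible p is 0.1), or 0.6 for each after Benjamini-Hochberg adjustment over the 3. The summed level of the 8 genes was 44.2 to 54.9 CPM in Control and 37.0 to 48.1 CPM with IL-33. The interval of SIGIRR lay within a 2-fold change in either direction, that is, -1 to 1 on the log2 scale, while those of IL1RAP and IL1R1 did not.

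**Figure D3:**
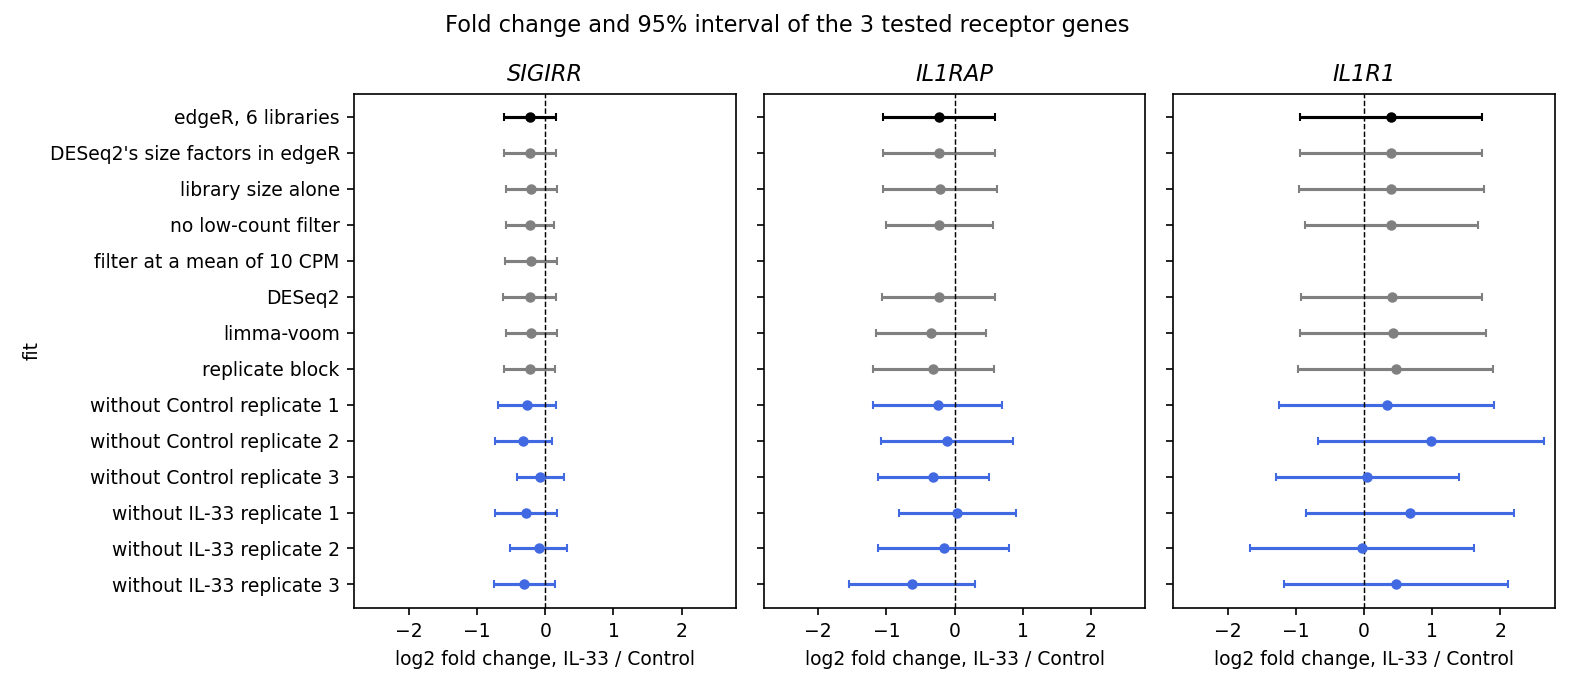
Log2 fold change of IL-33 over Control (x axis) with 95% intervals for SIGIRR, IL1RAP and IL1R1 in each fit (y axis): black, edgeR with 6 libraries; grey, other settings and tools; blue, a library left out. Every interval drawn includes 0, and SIGIRR has the narrowest.

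Balance between members can be read within a library, free of scaling. SIGIRR exceeded IL1RAP by 4.63 to 11.2 times. The mean ratio was 6.45 ± 2.05 in Control and 7.12 ± 3.54 with IL-33 (SD, n = 3 each; two-sided exact permutation p = 1 on the log scale). SIGIRR exceeded IL1R1 by 6.95 to 65.0 times, with means of 31.9 ± 29.1 and 15.5 ± 8.49 (exact permutation p = 0.5). The highest of these, 65.0, was in Control 3. IL1RAP exceeded IL1R1 by 4.37 ± 2.77 times in Control and 2.26 ± 1.08 times with IL-33 (exact permutation p = 0.3). None of the 3 ratios separated the groups, and after Benjamini-Hochberg adjustment over the 3 the p-values were 1, 0.75 and 0.75.

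Of the 8 members, 6 lie in a cluster on chromosome 2. By the start of their annotated spans, IL1R2, IL1R1, IL1RL2, IL1RL1, IL18R1 and IL18RAP come there in this order. All are on the plus strand, from 101991844 to 102452565. IL1RL1 and IL18R1 start at 102311502 and 102311529, and their spans overlap by 40509 bases. Of these 6 genes only IL1R1 passed the filter, and together they had 155 counts. Of 5 neighbouring genes, MAP4K4 and MFSD9 had mean levels above that of every gene of the cluster. MAP4K4, a kinase gene that ends at 101894689 before the cluster, measured 250 ± 17.0 (Control) and 259 ± 14.1 CPM (IL-33). MFSD9, a transporter-family gene that lies beyond it from 102715840 to 102736888, measured 12.2 ± 4.02 and 8.73 ± 2.17 CPM. SLC9A4 and SLC9A2, sodium-proton exchanger genes between the cluster and MFSD9, had 11 and 5 counts. TMEM182, a transmembrane protein gene beyond MFSD9, measured 2.13 ± 0.912 and 1.92 ± 1.31 CPM, near the level of IL1R1. SIGIRR and IL1RAP, the best measured members, lie outside the cluster.

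SIGIRR was the sole member at 10 CPM or more, and its pattern was set against the other 8328 genes at that level. The likeness was the root-mean-square difference of log2 CPM over the 6 libraries after each gene was centred on its mean. The closest were ETS2, a transcription factor of the ETS family, at 0.04, and C12orf10 and ATG101, the latter a subunit of the autophagy-initiating kinase complex, at 0.05 each. The median gene lay at 0.28. As in SIGIRR, the mean of these 3 was somewhat lower with IL-33, at 44.6 and 38.8 CPM for ETS2, 93.4 and 81.2 CPM for C12orf10 and 67.2 and 57.9 CPM for ATG101. They were picked for likeness to SIGIRR, which fixes that direction.

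Ligands of the family were scarcely read. Of 12 genes of ligands and soluble antagonists, 8 had 0 counts in all libraries, IL33 among them, and 2 were tested, with 0 called. IL1A had 7 of its 8 counts in IL-33 2, the library that held most reads of IL1RL1, and 1 in Control 2. IL1B had 4 counts in each of Control 2 and Control 3 and 0 with IL-33. IL18 measured 3.57, 4.32 and 0.361 CPM in Control and 1.91, 0.585 and 4.59 CPM with IL-33, and both groups held low and high libraries. Its log2 fold change was -0.28 ± 0.76 (SE).

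IL18BP, a secreted protein that binds IL-18 and keeps it from its receptor, had the larger fold of the 2 tested ligand and antagonist genes. It had 1, 8 and 4 counts in Control and 20, 24 and 22 counts with IL-33, or 0.0992, 0.960 and 0.723 CPM against 2.13, 2.34 and 2.59 CPM. All IL-33 values lay above all Control values, as in 4.54% of the genes tested. The log2 fold change was 2.02 ± 0.80 (SE) and did not pass, at 0.021 before adjustment and an adjusted p of 0.999 by edgeR. Over 12 alternatives it ran from 1.45 to 2.67, with adjusted p from 0.721 to 1. The annotated span of IL18BP overlaps that of NUMA1 by 2852 bases on the opposite strand. The strand setting is not stated and exons were not compared, so how the overlap bears on their counts is not known. NUMA1 measured 14.9, 11.0 and 20.2 CPM in Control and 12.7, 11.8 and 13.4 CPM with IL-33.

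Among 12 other receptors with a TIR domain, 8 had 0 counts and 2 were tested. TLR4, the lipopolysaccharide receptor, measured 2.29 ± 0.590 (Control) and 2.47 ± 1.25 CPM (IL-33). TLR6, which pairs with TLR2 to sense bacterial lipopeptides, measured 1.63 ± 0.227 and 0.998 ± 0.226 CPM. All IL-33 values of TLR6 lay below all Control values, as in 3.52% of the genes tested, and its log2 fold change of -0.71 ± 0.72 (SE) did not pass (adjusted p = 0.999 by edgeR). TLR2 itself had 0 counts.

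A larger part of the downstream genes than of the receptors passed the low-count filter. Of 17 genes of proximal signalling, 14 were tested, 6 with a log2 fold change above 0 and 8 below, and 0 called. Their median was -0.01, as was that of all 12125 genes. The 4 most abundant were the kinase genes IRAK1 (172 ± 37.1 CPM in Control, 163 ± 7.45 CPM with IL-33) and MAP3K7 (36.5 ± 5.80 and 36.2 ± 0.865), the inhibitor TOLLIP (44.99 ± 3.45 and 48.9 ± 3.37) and the TAK1 adaptor TAB2 (39.7 ± 13.2 and 32.1 ± 3.01). IRAK3, an inhibitory kinase-like member, and IKBKG, which has a near-identical pseudogene copy, were listed at 0 in all libraries. The 95% interval lay between -1 and 1 on the log2 scale for 11 of the 14. The adaptor gene MYD88 was not among these 11, with an interval from -1.173 to 1.225. It measured 2.85 ± 2.17 (Control) and 2.96 ± 0.331 CPM (IL-33), near the level of IL1R1.

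Receptor shedding and turnover genes were all tested, 9 of 9, with 6 above 0, 3 below, a median log2 fold change of 0.01 and 0 called. Among the most abundant were the proteases BACE2 (69.6 ± 11.0 CPM in Control, 69.7 ± 4.77 CPM with IL-33), ADAM17 (52.0 ± 7.77 and 53.6 ± 8.83) and ADAM10 (41.0 ± 5.64 and 45.2 ± 2.50), which cut membrane proteins at the cell surface or in vesicles. For 8 of the 9 genes the interval lay within -1 to 1.

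The NF-kB response list for IL-1 family cytokines held 16 genes, of which 9 were tested, 6 above 0 and 3 below. Their median log2 fold change was 0.10 and 0 were called. The 95% interval lay between -1 and 1 on the log2 scale for only 3 of the 9. Below the filter were ICAM1, PTGS2, IL6, CXCL8, CXCL1, CXCL2 and CXCL3, with 22, 18, 11, 8, 7, 4 and 1 counts in all. IER3, an early response gene, measured 940 ± 255 (Control) and 896 ± 99.3 CPM (IL-33). NFKBIA, the inhibitor that NF-kB induces as feedback, measured 57.5 ± 3.51 and 55.2 ± 2.37 CPM, and SOD2, mitochondrial superoxide dismutase, 16.2 ± 2.42 and 16.9 ± 1.13 CPM. RELB, an NF-kB subunit, measured 6.05 ± 0.847 and 9.86 ± 1.90 CPM. It was the sole gene of this list at an unadjusted p under 0.05 (0.0372 in edgeR's test across all genes, adjusted p = 0.999). Of all 12125 genes tested, 2.43% were under that limit.

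**Figure D4:**
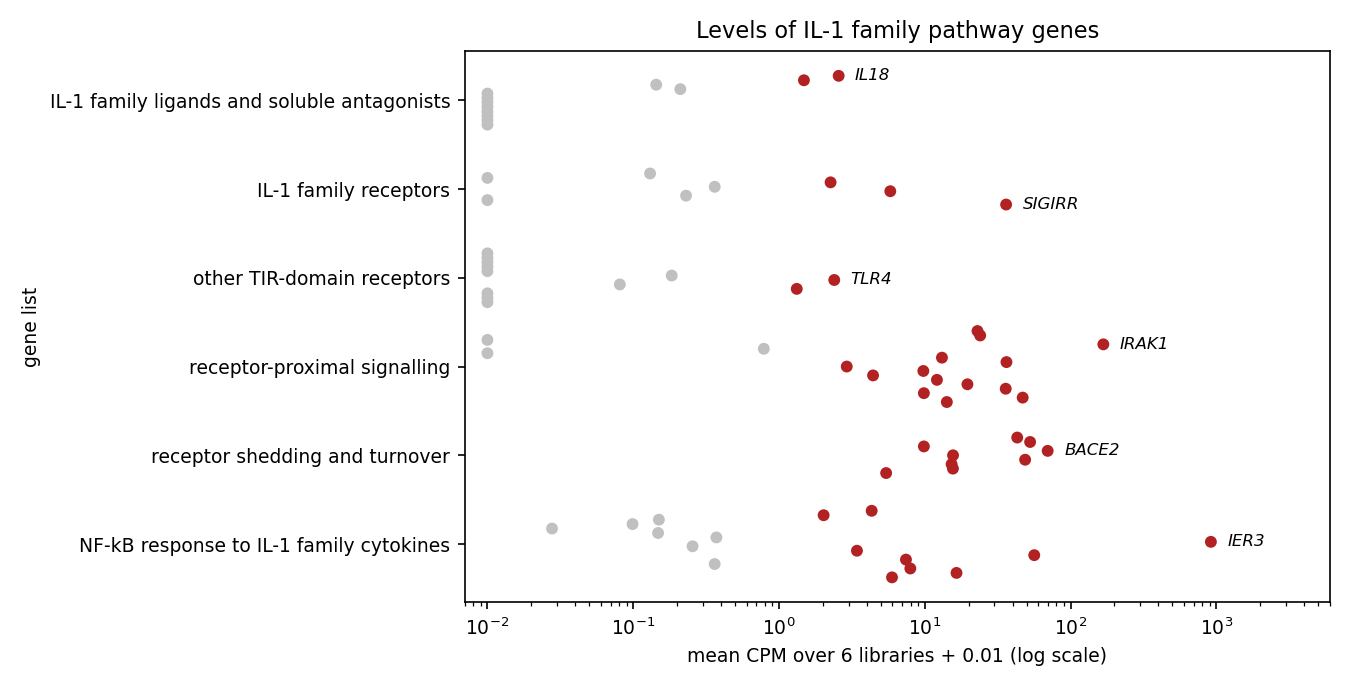
Mean CPM over the 6 libraries plus 0.01 (x axis, log scale) of each gene in 6 pathway lists (y axis). Red points passed the low-count filter and grey points did not, points at the left edge have 0 counts, and the most abundant gene of each list is named. Receptors and ligands spread down to 0, while 14 of 17 signalling genes and 9 of 9 shedding and turnover genes passed.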

How the data were processed

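RNA was extracted with TRIZOL and read with the Lexogen QuantSeq 3′ FWD kit, per the labels' protocols. The deposited file is 1 table of raw counts, whole numbers by gene symbol, for 6 libraries. Per the submitters' processing notes, STAR 2.7.5a, HTSeq 0.6.1, edgeR and hg38 were used, in roles that are not stated. The annotation, like the strand setting, is among the steps not given in the sources used here, as is any read filter. A row without values was left out (1 of 27470).

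The members and lists were chosen with earlier results of these data known. IL-33 was compared with Control by edgeR 4.0.16 (R 4.3.3): filterByExpr with a count minimum of 10 and a total minimum of 15, TMM, robust quasi-likelihood test, group as the sole term, Benjamini-Hochberg adjustment at 0.05 over all tested genes. CPM used TMM-scaled library totals, and centred log2 CPM added 2 counts. Alternative tools were limma-voom (limma 3.58.1) and DESeq2 1.42.0. The fits were also run on simulated data, the outcome of which is not given.

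All 8 members were named, and from each other list up to 4 tested genes of highest mean CPM and genes at 0. A gene that this rule selects is not reported here. IL1A, IL1B, SLC9A4, SLC9A2, NUMA1, KIRREL3-AS2, MYD88 and the genes of the NF-kB list below the filter were named after their values were seen. Intervals and the limit of 3 counts cover counting error only, since reads without molecular identifiers are not independent molecules. Libraries of a group differed by more than counting of independent reads would give (chi-square per degree of freedom 5.56 to 15.8). Since reads are not independent, this value cannot show whether the libraries came from separate cultures. Libraries were not merged for the tests. Counts were summed by group only to give intervals for members near the limit. Positions came from GENCODE release 29, and promoter windows from RefSeq (GRCh38.p14), with all 8 members matched. Figures were drawn with matplotlib 3.10.9.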

Additional observations from a re-analysis of the deposited data

How the results depend on the processing

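The count of changed receptor genes was 0 in all 14 alternatives (other size factors, library size alone, no filter, a filter at 10 CPM, DESeq2, limma-voom, the replicate block, an adjusted p under 0.1 and each library left out), with 1 to 6 members tested. Over all genes the count of 0 came to 3 without the low-count filter, to 1 with DESeq2 and to between 0 and 6 with a library left out, the 6 being without Control 3. The cause was not tested. With a library left out, the log2 fold change ran from -0.32 to -0.08 for SIGIRR, from -0.63 to 0.04 for IL1RAP (0.038 without IL-33 1) and from -0.03 to 0.98 for IL1R1 (-0.027 without IL-33 2). The replicate block gave 0 changed members and 0 changed genes, with log2 fold changes of -0.22, -0.31 and 0.47. The numbers 1 to 3 are not said to pair libraries, and deviations of same-numbered libraries correlated at -0.0861, 0.0267 and -0.136.

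Shares of the family's counts ran, with a library left out, from 78.9% to 83.9% (Control) and 75.2% to 82.5% (IL-33) for SIGIRR, and from 2.67% (without Control 2) to 5.68% (Control) and 4.28% to 7.72% (IL-33) for IL1R1. Levels on library size alone moved by less than the spread between replicates. Of the 5 members below the filter, IL1R2, IL1RL1 and IL18R1 entered the fit without it and did not pass (edgeR, adjusted p = 0.999, 0.999 and 0.995), and IL1RL2 and IL18RAP, with 0 counts, gave no value.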
